A study of Homo sapiens with 10 samples.

Results

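The transcription factors that set the luminal identity of breast epithelium were examined through the acetylated chromatin around their genes in 2 HER2 breast cancer lines. H3K27ac, acetylation of histone H3 at lysine 27, is found at active promoters and enhancers. The 10 genes were GATA3, FOXA1, ESR1, PGR, TFAP2A, TFAP2B, TFAP2C, XBP1, MYB and TRPS1, chosen for their role by a rule that uses no measured value, though with earlier results of these data known, out of 19970 protein-coding genes on chromosomes 1 to 22 and X. For each gene, every peak overlapping the annotated gene body (GENCODE release 44, hg38) or the 100 kb on either side was taken. The peaks came from 8 deposited lists, 4 from SKBR3 cells and 4 from MDA-MB-453 cells. In each line, 2 libraries were untreated and 2 came from cells given TWEAK, the ligand of the Fn14 receptor, at 10 ng/ml for 48 h with a fresh dose after 24 h. All cells were grown in DMEM with 10% FBS and starved in optimem for 8 h. Each line is 1 established line, and the study's methods call the ChIP-seq libraries of a line biological replicates. The labels do not say how the 2 libraries of a group were made apart, so p-values measure the spread between these libraries.

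The 10 windows held 101 and 89 peaks in untreated SKBR3, 89 and 102 after TWEAK, 74 and 76 in untreated MDA-MB-453 and 77 and 78 after TWEAK. Merged over the 8 lists, they formed 139 of the 76044 regions of the series. In luminal cells, FOXA1 opens chromatin for other factors, GATA3 and the AP-2 proteins bind many of the same enhancers, and ESR1, the estrogen receptor, acts through enhancers that those factors have prepared. PGR, XBP1 and MYB are known targets of the estrogen receptor in breast cells, and TRPS1 is a GATA-type repressor of luminal epithelium. These genes often lie in long acetylated domains and their products bind their own and each other's enhancers.

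The lists differed between the lines before any gene was considered. SKBR3 lists held 43684 to 51687 peaks and covered 92.1 to 105.7 Mb, against 36148 to 37813 peaks and 70.5 to 72.1 Mb in MDA-MB-453, and the longest list was SKBR3 TWEAK replicate 2. The share of peaks with a q-value under 1e-05 was 39.4% to 52.6% in SKBR3 and 59.8% to 63.8% in MDA-MB-453. Read depth was not used here and is unknown. All 5 luminal epithelial and HER2 markers checked (KRT8, KRT18, KRT19, EPCAM and ERBB2) had a promoter peak in all 8 lists, and the ERBB2 peak ranked at or above the 99.98th percentile of each. Of the other cell type markers, 0 of 4 leukocyte genes had a promoter peak in any list, while COL1A1 of the fibroblast list and CDH5 and VWF of the endothelial list had one in all 8.

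Between the lines, 9 of the 10 genes differed in the length of DNA under peaks in their windows. MDA-MB-453 had the longer covered length at 8 of them (TFAP2B, GATA3, MYB, TRPS1, PGR, TFAP2A, FOXA1 and XBP1), and SKBR3 at TFAP2C alone. The differences were tested with limma on log2(covered kb + 1) with Benjamini-Hochberg adjustment over 18187 genes. In that fit 53.9% of all genes were called longer in SKBR3 and 24.9% longer in MDA-MB-453. The median difference, SKBR3 minus MDA-MB-453, was 0.33 over all genes and -0.45 over the 10 members, both on the log2 scale. The widest peak of the window did not overlap between the lines at 3 members in favour of SKBR3 (ESR1, FOXA1 and TFAP2C, 41.1% of all genes) and 4 in favour of MDA-MB-453 (TFAP2B, MYB, TRPS1 and GATA3, 24.1%). Covered lengths of all 4 libraries of one line lay apart from those of the other at 1 member in favour of SKBR3 and 7 in favour of MDA-MB-453, against 51.2% and 23.3% of all genes. When covered lengths were scaled to the same total per list, the median over all genes moved to -0.08, the split of all calls went from 9794 and 4533 (68.4% longer in SKBR3) to 6478 and 7680 (45.8%), and the members were called 1 to 9, with ESR1 then longer in MDA-MB-453.

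**Figure D1:**
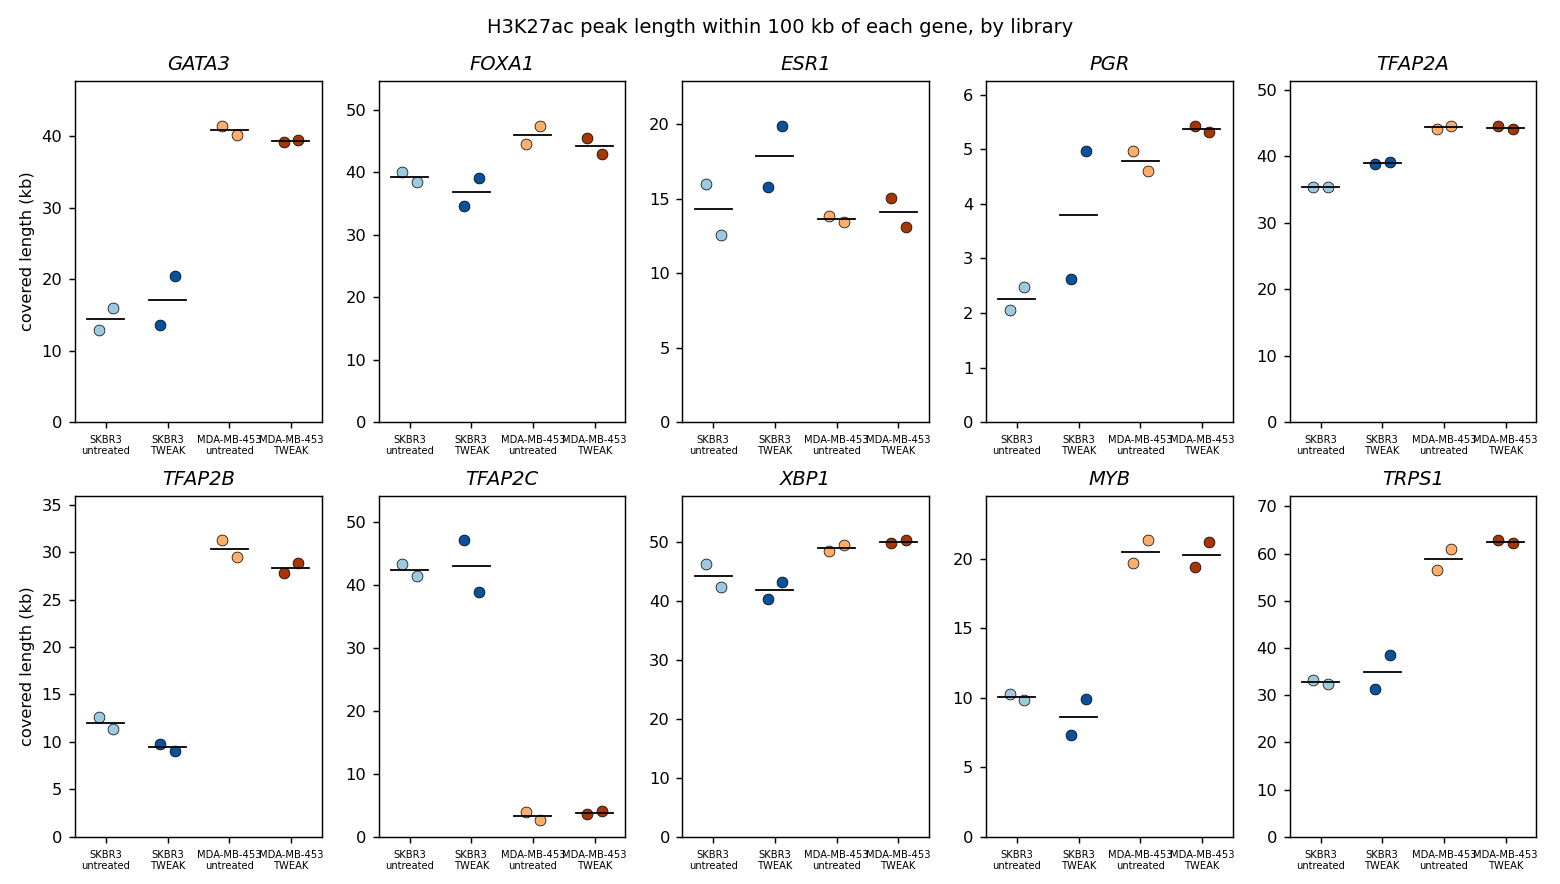
Length of DNA under H3K27ac peaks (kb, each panel with its own axis from 0) in the window of each gene. Points are libraries, 2 per group, and lines are group means. TFAP2C lay between 38.9 and 47.1 kb in SKBR3 and between 2.61 and 4.15 kb in MDA-MB-453, whereas GATA3, TFAP2B, MYB and TRPS1 were longer in every MDA-MB-453 library.

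**Figure D2:**
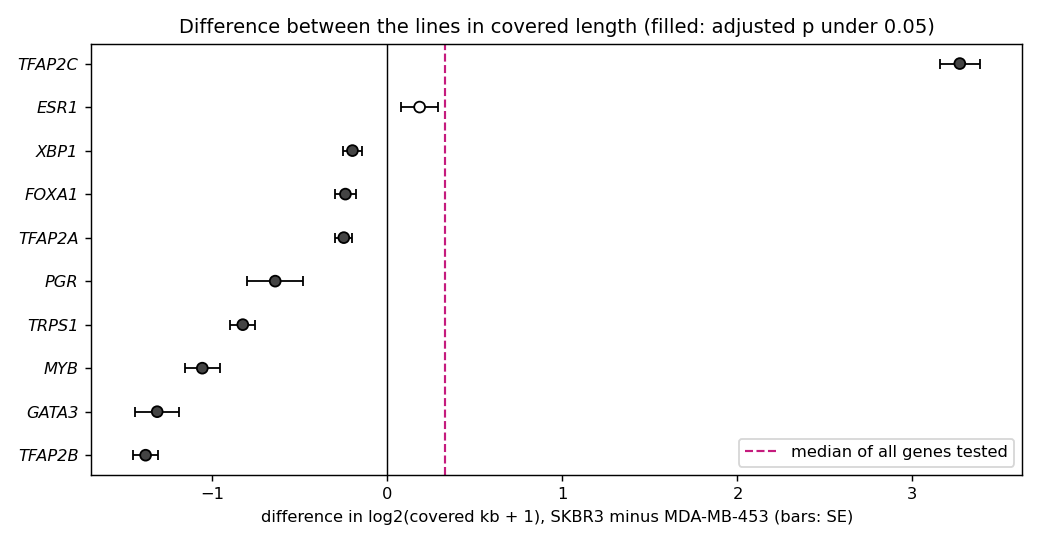
Difference between the lines in log2(covered kb + 1), SKBR3 minus MDA-MB-453, with SE from limma (8 libraries). Filled points passed an adjusted p of 0.05 and the dashed line marks the median of all genes, 0.33. TFAP2C stood at 3.27 and the other 9 genes between -1.38 and 0.18.

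GATA3, a zinc-finger factor of luminal differentiation, showed how a single gene body can differ between the lines. Its window was covered for 12.9 and 16.0 kb in untreated SKBR3, 13.6 and 20.5 kb after TWEAK, 41.5 and 40.2 kb in untreated MDA-MB-453 and 39.3 and 39.6 kb after TWEAK. The lines did not overlap, and the SKBR3 mean of 15.8 ± 3.43 kb (SD, n = 4) was 0.393 of the MDA-MB-453 mean of 40.1 ± 0.995 kb (limma difference -1.32 ± 0.12 SE, adjusted p = 1.90e-05). In MDA-MB-453, 1 peak of 32.4 to 33.4 kb ran from 0.9 kb before the outer gene start to past the end of the 29.8 kb gene. In SKBR3 the first peak began 8.2 kb inside the gene, at an internal start, and its width was 5.53, 11.2, 9.37 and 8.02 kb.

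In SKBR3, that internal-start peak ranked at the 63.7th and 63.4th percentile of its list in untreated cells, ordered by the authors' score. After TWEAK it ranked at the 55.7th and 67.4th. In MDA-MB-453 the peak over the whole gene ranked at the 95.5th, 95.2th, 95.3th and 95.8th. The line difference therefore compares a peak at an internal start with a peak that also covers the outer start. The difference of -32.9 percentile points (SE 2.59, adjusted p = 2.19e-05, limma over 10327 genes with a promoter peak in all 8 lists) was the widest among the members. The 250 bases before the RefSeq start of GATA3 (GRCh38.p14, chr10:8045083-8045332, plus strand) lay under a peak in all 4 MDA-MB-453 lists and 0 SKBR3 lists. They are shown as a small part of the longer MDA-MB-453 peak that no SKBR3 peak reached. A signal under the calling threshold would not be listed. Capitals mark the AP-2 letters GCCNNNGGC, which were found on either strand in 19.7% of 27305 RefSeq promoters.
GATA3 promoter: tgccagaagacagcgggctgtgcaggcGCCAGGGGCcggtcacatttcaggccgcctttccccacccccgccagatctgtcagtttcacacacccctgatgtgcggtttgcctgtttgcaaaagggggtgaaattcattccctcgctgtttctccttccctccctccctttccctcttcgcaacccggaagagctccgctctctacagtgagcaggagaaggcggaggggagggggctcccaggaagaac

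Beyond the gene body, the GATA3 window had 2 regions found in the 4 MDA-MB-453 lists alone. The stronger lay 89.8 kb upstream (chr10:7952593-7958478, inside TAF3), at the 72.8th and 77.4th percentile in untreated cells and the 74.5th and 72.3th after TWEAK. The 200 bases of it with the most matches to the 7 motifs searched are given, hg38 chr10:7955462-7955661, plus strand. They hold a GATA match (AGATAA on either strand, in capitals), which this choice favours. The second, 78.3 kb upstream, stayed at or below the 32.9th percentile.
GATA3 upstream region: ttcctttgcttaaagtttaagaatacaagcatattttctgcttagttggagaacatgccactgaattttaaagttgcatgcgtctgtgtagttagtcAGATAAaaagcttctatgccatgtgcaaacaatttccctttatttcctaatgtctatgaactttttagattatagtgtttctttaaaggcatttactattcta
One region of the opposite kind lay 58.3 kb downstream, at the 40.6th, 29.3th, 14.1th and 42.8th percentile in SKBR3.

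FOXA1, a forkhead pioneer factor, had a strong promoter peak in both lines, with more of its window covered in MDA-MB-453. The window was covered for 40.1 and 38.4 kb in untreated SKBR3, 34.6 and 39.2 kb after TWEAK, 44.5 and 47.5 kb in untreated MDA-MB-453 and 45.5 and 42.9 kb after TWEAK. Every MDA-MB-453 value was above every SKBR3 value (-0.24 ± 0.06 SE, adjusted p = 0.00692, limma). The 6.51 kb gene body lay wholly under peaks in every list, so that the difference there was 0, and with 50 kb on each side it was -0.05 (adjusted p = 0.504). Scaled by list total it was -0.68 (adjusted p = 9.12e-06, limma). The promoter peak was among the strongest of each list, at the 97.7th to 99.1th percentile in SKBR3 and the 99.9th in MDA-MB-453 (-1.45 points, SE 0.37, adjusted p = 0.00894), yet it was wider in SKBR3 (17.3 to 18.9 kb) than in MDA-MB-453 (14.7 to 16.8 kb).

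The covered length that separated the lines at FOXA1 lay upstream. The region 51.7 kb upstream (chr14:37639906-37655621) was covered for 3.5 to 4.0 kb in SKBR3 and 13.4 to 15.3 kb in MDA-MB-453. The region 27.7 kb upstream ranked at the 52.7th to 63.4th percentile in SKBR3 and the 92.1th to 94.8th in MDA-MB-453. Downstream, regions 22.9 and 72.1 kb past the start were found in the 4 SKBR3 lists alone, the first at the 46.8th, 57.8th, 29.6th and 52.1th percentile.

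**Figure D3:**
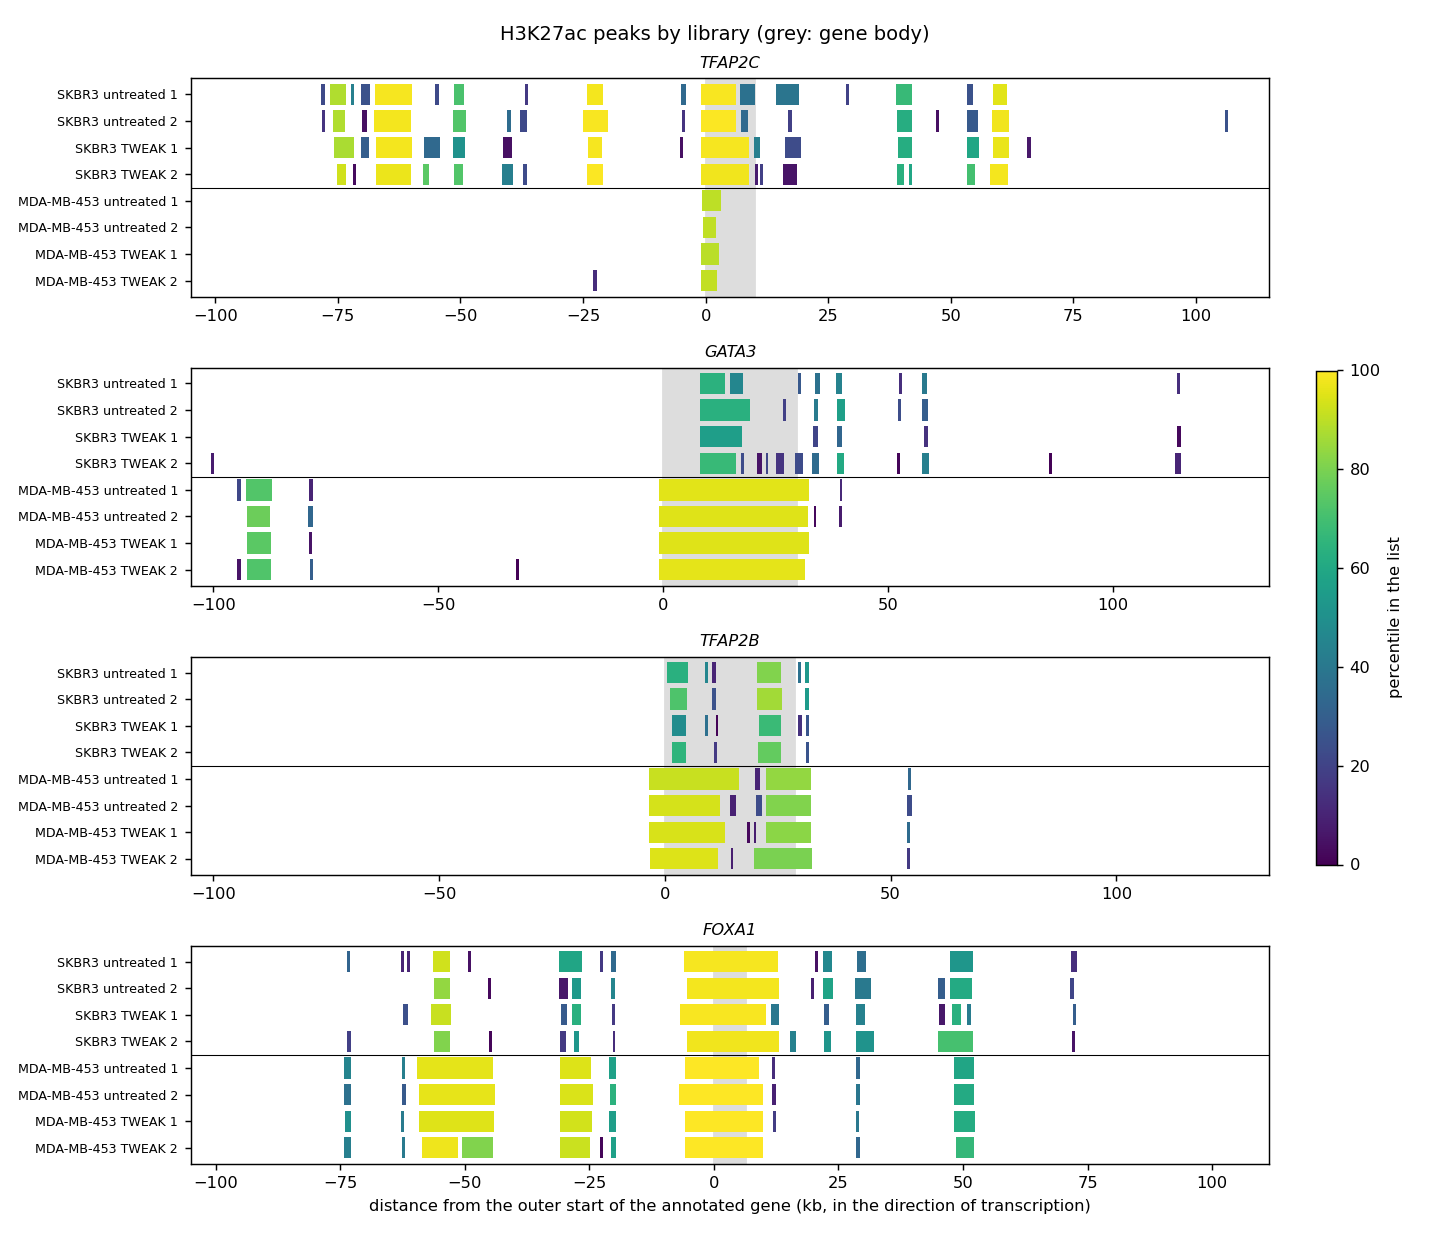
H3K27ac peaks at TFAP2C, GATA3, TFAP2B and FOXA1 by distance from the outer gene start (kb, in the direction of transcription), 1 row per library, coloured by percentile within the list. TFAP2C had 15 to 17 peaks in each SKBR3 list and 1 or 2 in each MDA-MB-453 list, and the GATA3 gene body was 1 peak of about 33 kb in MDA-MB-453.

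The AP-2 genes, whose proteins bind the same GC-rich letters, went in opposite directions. TFAP2C, the AP-2gamma gene known to be active in luminal and HER2 tumours, was covered for 43.3 and 41.4 kb in untreated SKBR3 and 47.1 and 38.9 kb after TWEAK. MDA-MB-453 had 3.88 and 2.61 kb in untreated cells and 3.58 and 4.15 kb after TWEAK. The SKBR3 mean of 42.7 ± 3.45 kb (SD, n = 4) stood against a MDA-MB-453 mean of 3.56 ± 0.670 kb, with no overlap (3.27 ± 0.12 SE, adjusted p = 1.37e-07, limma).

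The TFAP2C promoter itself was acetylated in both lines. Its peak ranked at the 99.2th and 99.2th percentile in untreated SKBR3, the 98.7th and 97.9th after TWEAK, and the 89.6th to 90.7th in MDA-MB-453 (8.60 points, SE 0.60, adjusted p = 1.34e-05). The width was 7.19 to 9.77 kb in SKBR3 and 2.61 to 3.88 kb in MDA-MB-453. What SKBR3 had in addition was a series of distal regions, 7 of which every SKBR3 library listed and MDA-MB-453 never did, out of 15 such regions over all 10 windows (10.8% of 139, against 14.1% of all regions).

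The strongest of the 7 lay 63.7 kb upstream at the 97.2th to 98.6th percentile, 60.0 kb downstream at the 95.3th to 98.1th, and 74.1 kb upstream at the 87.3th to 92.7th. A further region 22.5 kb upstream ranked at the 98.1th, 98.9th, 98.7th and 99.5th percentile in SKBR3. It escaped the count because MDA-MB-453 TWEAK replicate 2 listed a peak of 0.9 kb there at the 12.8th percentile. Sequences from 3 of these regions are shown because TFAP2C had the largest difference in covered length among the members, with AP-2 letters (GCCNNNGGC), AP-1, GATA and forkhead letters in capitals, each on either strand, on the plus strand of hg38 at chr20:56606625-56606824, chr20:56565587-56565786 and chr20:56689761-56689960.
TFAP2C 22.5 kb upstream: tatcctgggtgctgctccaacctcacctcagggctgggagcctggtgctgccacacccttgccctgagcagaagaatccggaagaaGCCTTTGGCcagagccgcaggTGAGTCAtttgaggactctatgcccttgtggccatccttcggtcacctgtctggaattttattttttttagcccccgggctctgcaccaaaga
TFAP2C 63.7 kb upstream: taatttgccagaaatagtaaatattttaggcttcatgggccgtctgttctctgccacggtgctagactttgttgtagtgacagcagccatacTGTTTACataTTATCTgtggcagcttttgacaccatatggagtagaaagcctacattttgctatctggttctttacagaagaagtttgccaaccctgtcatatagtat
TFAP2C 60.0 kb downstream: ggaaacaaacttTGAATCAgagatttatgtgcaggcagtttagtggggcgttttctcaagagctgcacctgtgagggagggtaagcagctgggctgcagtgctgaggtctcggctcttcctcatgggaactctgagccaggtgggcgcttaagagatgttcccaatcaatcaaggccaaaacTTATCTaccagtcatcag
The first holds 1 AP-2 and 1 AP-1 match, the second 1 forkhead and 1 GATA match, and the third 1 AP-1 and 1 GATA match. Each stretch was chosen as the one with the most motif matches in its region.

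TFAP2B, the AP-2beta gene, had the reverse pattern. Its window was covered for 12.6 and 11.4 kb in untreated SKBR3, 9.78 and 9.06 kb after TWEAK, 31.2 and 29.5 kb in untreated MDA-MB-453 and 27.8 and 28.8 kb after TWEAK. The lines did not overlap, with means of 10.7 ± 1.61 and 29.3 ± 1.44 kb (SD, n = 4; -1.38 ± 0.07 SE, adjusted p = 5.30e-07, limma). The promoter peak ran over 15.1 to 19.8 kb from 3.3 or 3.4 kb before the gene start in MDA-MB-453. In SKBR3 it was 3.08 to 4.61 kb wide and began 0.4 to 1.6 kb inside the gene.

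Its rank was the 63.3th and 72.0th percentile in untreated SKBR3, the 48.1th and 65.1th after TWEAK, and the 91.8th to 94.8th in MDA-MB-453 (-31.4 points, SE 3.73, adjusted p = 1.67e-04). The 250 bases before the RefSeq start were under a peak in the 4 MDA-MB-453 lists and 0 SKBR3 lists, as at GATA3. The paralog TFAP2D shares this window, so its own called difference (-1.33) rests partly on the same peaks.

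TFAP2A, the AP-2alpha gene, had promoter ranks that overlapped between the lines, and a shorter covered length in SKBR3. It was covered for 35.4 and 35.5 kb in untreated SKBR3, 38.8 and 39.1 kb after TWEAK, 44.1 and 44.7 kb in untreated MDA-MB-453 and 44.6 and 44.1 kb after TWEAK (-0.25 ± 0.05 SE, adjusted p = 0.00146, limma). The difference was -0.69 (adjusted p = 1.13e-05) scaled by list total and -0.09 (adjusted p = 0.131) in the gene body alone. The promoter peak spanned 18.1 to 22.8 kb in all lists at the 95.9th to 97.5th percentile, a difference of 0.30 points (SE 0.46, adjusted p = 0.583). The length that set the lines apart lay 7.9 kb upstream, where MDA-MB-453 was covered for 7.3 to 8.0 kb and SKBR3 for 0.8 kb or less. Ranked by fold enrichment in place of the score, the promoter difference turned to -2.26 points (adjusted p = 0.00736). The 250 bases before its RefSeq start (chr6:10419660-10419909, minus strand) are given as the promoter of an AP-2 gene that was under a peak in all 8 lists. None of the 7 motifs searched was found in them.
TFAP2A promoter: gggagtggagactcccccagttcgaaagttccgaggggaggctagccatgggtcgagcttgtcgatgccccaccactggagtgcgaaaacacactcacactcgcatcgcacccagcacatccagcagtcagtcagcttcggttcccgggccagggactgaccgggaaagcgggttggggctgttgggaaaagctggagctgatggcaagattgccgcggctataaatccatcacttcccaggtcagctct

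The hormone receptor genes were ESR1 and PGR, and whether their windows were covered less than those of other genes of their size was not tested. ESR1 spans 473 kb, and its window of 673 kb was covered for 16.0 and 12.6 kb in untreated SKBR3, 15.8 and 19.9 kb after TWEAK, 13.9 and 13.5 kb in untreated MDA-MB-453 and 15.0 and 13.1 kb after TWEAK. The lines overlapped (0.18 ± 0.11 SE, 2 SE on either side reaching from -0.03 to 0.40, adjusted p = 0.147, limma). Its call in this comparison moved with single libraries: without SKBR3 untreated replicate 2 the difference was 0.26 (adjusted p = 0.0480), and without SKBR3 TWEAK replicate 1 it was 0.26 (adjusted p = 0.0468). It was 0.49 (adjusted p = 0.00604) in the gene body alone.

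A peak within 1 kb of an ESR1 start was found only in SKBR3 TWEAK replicate 2, at the 30.8th percentile, and in MDA-MB-453 untreated replicate 1, at the 29.7th. The other MDA-MB-453 lists had a peak slightly further in, so that a region 1.7 kb past the start was held by all 4 of them at the 29.7th to 44.7th percentile and by none of the SKBR3 lists. The 250 bases before the RefSeq start (chr6:151656422-151656671, plus strand) were under no peak in any list and held 3 CG pairs, against 34 in the MYB promoter. They are printed as the bases before the outer ESR1 start, which no peak covered, and none of the 7 motifs was found in them. ESR1 has other annotated starts further in, so these bases do not stand for its other promoters.
ESR1 promoter: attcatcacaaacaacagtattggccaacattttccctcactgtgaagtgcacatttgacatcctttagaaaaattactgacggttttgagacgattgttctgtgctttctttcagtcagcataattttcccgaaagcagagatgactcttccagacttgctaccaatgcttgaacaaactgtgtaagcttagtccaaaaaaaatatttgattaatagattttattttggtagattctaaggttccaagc

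Of the 22 ESR1 regions, 11 were intronic, 3 overlapped an exon and 8 lay outside the gene. A region 244 kb inside the gene (chr6:151898913-151902858) was in all 8 lists and was the strongest of the SKBR3 window, at the 92.6th and 92.0th percentile in untreated cells and the 98.7th and 99.7th after TWEAK. MDA-MB-453 had it at the 70.5th and 74.9th, and the 73.0th and 73.2th. A region 455 kb inside ranked between the 71.8th and 90.5th percentile in SKBR3 and at or below the 17.7th in the 3 MDA-MB-453 lists that held it. Of the 5 regions particular to MDA-MB-453, the strongest lay 562 kb from the start at a SYNE1 promoter, at the 59.5th to 66.4th percentile. The 244 kb region is shown for its place at the top of the SKBR3 window, with its GATA letters in capitals (hg38 chr6:151901986-151902185, plus strand). The printed stretch was chosen for the most motif matches in the region.
ESR1 intronic region: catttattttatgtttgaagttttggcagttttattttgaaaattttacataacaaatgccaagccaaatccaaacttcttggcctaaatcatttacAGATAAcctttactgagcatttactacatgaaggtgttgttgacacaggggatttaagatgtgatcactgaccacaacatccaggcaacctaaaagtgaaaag

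PGR, the progesterone receptor gene, had no promoter peak in any of the 8 lists, which was also true of 32% of all protein-coding genes. Its window was covered for 2.06 and 2.47 kb in untreated SKBR3, 2.63 and 4.97 kb after TWEAK, 4.97 and 4.60 kb in untreated MDA-MB-453 and 5.43 and 5.31 kb after TWEAK. The longest SKBR3 value lay within the MDA-MB-453 range, and the difference was -0.64 ± 0.16 SE (adjusted p = 0.00616, limma), or -1.21 (adjusted p = 0.1002, limma) when only peaks with q under 1e-05 were kept. A region 37.8 kb inside the gene was found in MDA-MB-453 alone, at the 54.4th to 63.0th percentile. The 1 region in all 8 lists lay 86.6 kb upstream, covered for 2.1 to 4.2 kb in SKBR3 and 0.7 to 1.0 kb in MDA-MB-453.

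XBP1, a factor of the unfolded protein response that is abundant in estrogen receptor positive tumours, had a long acetylated domain in both lines. The window was covered for 46.3 and 42.3 kb in untreated SKBR3, 40.4 and 43.3 kb after TWEAK, 48.5 and 49.6 kb in untreated MDA-MB-453 and 49.9 and 50.4 kb after TWEAK. The lines did not overlap (-0.20 ± 0.05 SE, adjusted p = 0.00909, limma), and the promoter peak ranked lower in SKBR3 (94.9th to 97.2th percentile) than in MDA-MB-453 (99.2th to 99.7th; -3.05 points, SE 0.37, adjusted p = 1.98e-04). Ranked by fold enrichment the latter difference was -0.88 (adjusted p = 0.104). The XBP1 gene body lay wholly under peaks in every list, so that the covered length there did not differ (adjusted p = 1), and scaled by list total the window's difference was -0.64 (adjusted p = 1.11e-05, limma). Neighbouring regions followed it: at 16.7 kb past the start the rank was the 19.0th to 48.8th percentile in SKBR3 and the 89.8th to 93.8th in MDA-MB-453. The window also holds CHEK2, HSCB, CCDC117 and ZNRF3, whose promoters account for some of its peaks.

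MYB, a proto-oncogene and estrogen receptor target, was covered for 10.3 and 9.87 kb in untreated SKBR3, 7.33 and 9.89 kb after TWEAK, 19.7 and 21.3 kb in untreated MDA-MB-453 and 19.4 and 21.2 kb after TWEAK. The mean in SKBR3 was 0.458 of that in MDA-MB-453, with no overlap (-1.06 ± 0.10 SE, adjusted p = 1.78e-05, limma). Particular to MDA-MB-453 were 3 regions, 7.3 kb upstream and 59.7 and 62.7 kb downstream, and 0 to SKBR3. The promoter peak was narrower in SKBR3 (0.374 to 1.81 kb against 3.72 to 5.69 kb) although its percentile was higher in each SKBR3 library (59.8th to 76.2th against 55.5th to 58.8th; 10.3 points, SE 4.42, adjusted p = 0.0715). That difference reached 13.7 (adjusted p = 0.0297) without SKBR3 untreated replicate 1 and 14.0 (adjusted p = 0.0162) without SKBR3 TWEAK replicate 2. The 250 bases before the MYB start (chr6:135181058-135181307, plus strand) are shown as the only member promoter with both AP-2 and forkhead letters. The forkhead letters were found in 2.98% of all promoters.
MYB promoter: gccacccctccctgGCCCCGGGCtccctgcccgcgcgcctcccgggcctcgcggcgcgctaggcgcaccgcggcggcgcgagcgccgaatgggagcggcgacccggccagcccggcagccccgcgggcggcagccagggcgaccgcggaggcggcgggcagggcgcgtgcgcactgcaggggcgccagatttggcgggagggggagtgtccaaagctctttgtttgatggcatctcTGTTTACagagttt

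TRPS1, which has the largest number of regions (26), was covered for 33.3 and 32.4 kb in untreated SKBR3, 31.4 and 38.5 kb after TWEAK, 56.6 and 61.1 kb in untreated MDA-MB-453 and 62.8 and 62.3 kb after TWEAK. The SKBR3 mean was 0.558 of the MDA-MB-453 mean, with no overlap (-0.83 ± 0.07 SE, adjusted p = 1.12e-05, limma). Rank went the other way at 4 of the 9 regions it had in all 8 lists, 3 of which follow. Of all regions in 8 lists, 35.3% ranked higher in every SKBR3 list. The region 475.6 kb past the start was at the 88.1th to 92.5th percentile in SKBR3 and the 44.02th to 51.09th in MDA-MB-453, the one 27.7 kb upstream at the 98.2th to 99.8th and the 82.0th to 84.9th, and the one 56.5 kb upstream at the 98.6th to 99.8th and the 77.6th to 80.6th. The promoter peak was at the 96.1th to 99.5th percentile in SKBR3 and the 98.3th to 98.4th in MDA-MB-453 (-0.13 points, SE 0.68, adjusted p = 0.879). Ranked by fold enrichment, it was called lower in SKBR3 (-8.83 points, adjusted p = 0.00758, limma). Its deposited fold enrichment was 8.06, 13.3, 7.93 and 10.95 in SKBR3 and 24.5, 23.4, 22.4 and 20.8 in MDA-MB-453, without overlap.

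In all, 8 members had a promoter peak in all 8 lists, and 51.7% of all protein-coding genes did. Of these 8, the percentile was called higher in SKBR3 at TFAP2C, higher in MDA-MB-453 at GATA3, TFAP2B, XBP1 and FOXA1, and was not called at MYB, TFAP2A and TRPS1. Over all 10327 genes, 33.7% were called higher in SKBR3 and 30.5% higher in MDA-MB-453. Without overlap between the lines, the percentile was higher in SKBR3 at 2 (TFAP2C and MYB, 30.8% of genes) and lower at 4 (28.7%). Keeping lists of equal size moved that split from 52.5% to 36.8% in favour of SKBR3, and the members remained 1 and 4.

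**Figure D4:**
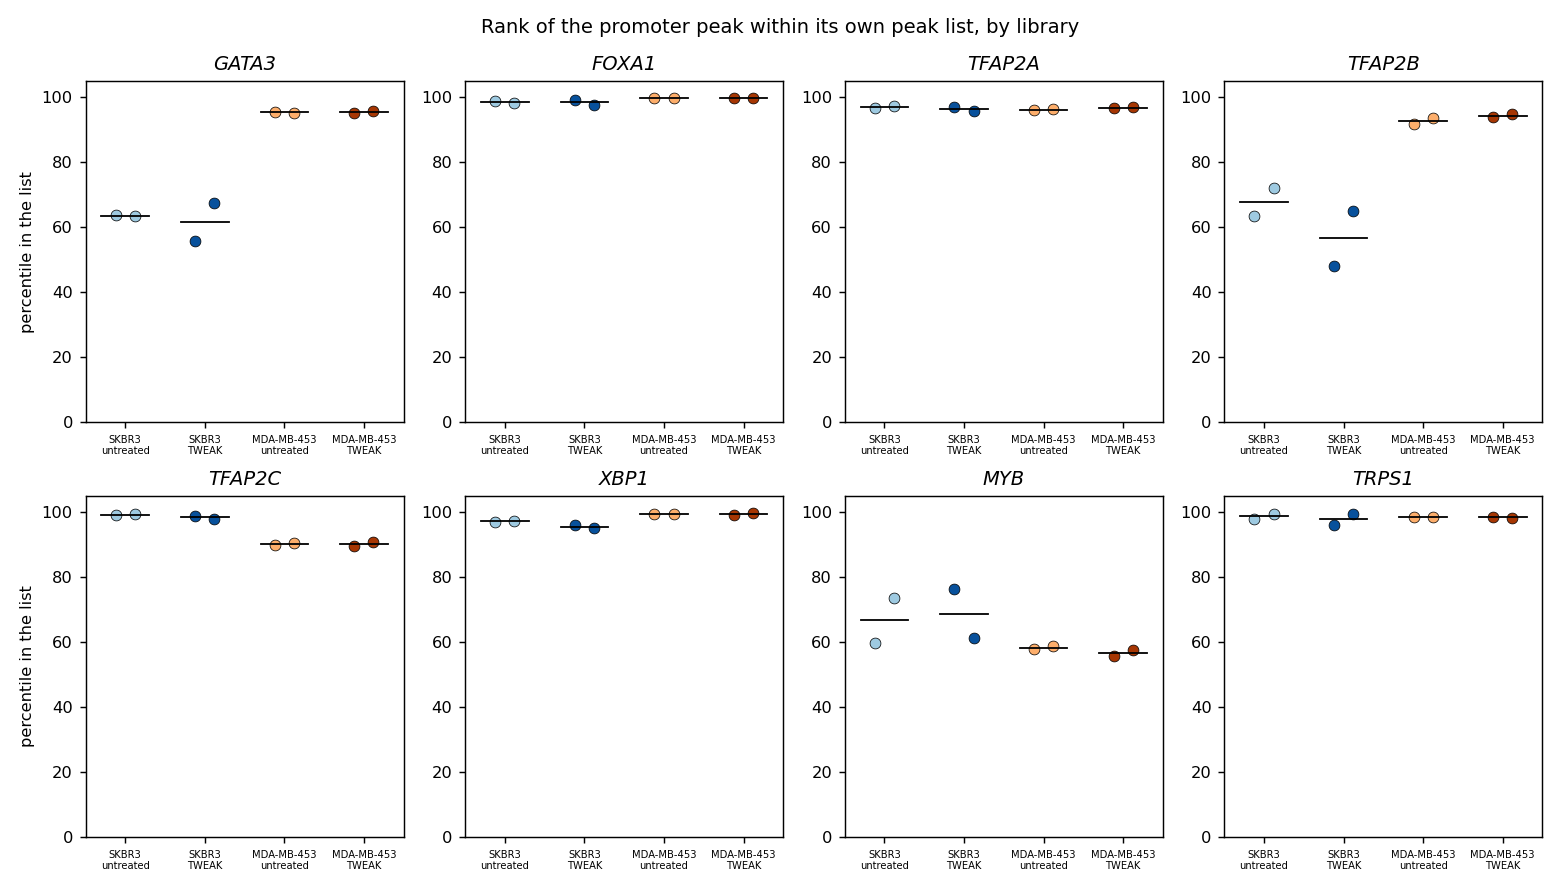
Percentile of the promoter peak (the highest-scoring peak within 1 kb of a start) in its own list, for the 8 genes with one in every list. Points are libraries and lines are group means. GATA3 and TFAP2B were below the 73rd percentile in all SKBR3 libraries and above the 91st in all MDA-MB-453 libraries, while FOXA1, TFAP2A, XBP1 and TRPS1 stayed above the 94th in every list.

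Of the 139 regions, 39 (28.1%) were in all 8 lists, against 23.3% of all regions, and 32 were in 1 list. MDA-MB-453 had 15 regions of its own (10.8%, against 10.5% of all regions), of which ESR1 held 5 and MYB 3, and SKBR3 had 15, of which TFAP2C held 7. Among the 39 shared regions the percentile was higher in every SKBR3 list at 9 (23.1%, against 35.3% of shared regions in the series) and in every MDA-MB-453 list at 14 (35.9%, against 26.2%). The former included 4 regions of TRPS1 and 2 of MYB, and the latter 4 each of FOXA1 and XBP1.

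The 1000 bp around each region's midpoint was searched on both strands for letters of the GATA, forkhead, AP-2 and hormone receptor factors. Those of AP-1 and NF-kB, which are not members, were also searched, and those of MYB and XBP1 were not. GATA letters (AGATAA) were found in 88 of 139 regions (63.3%) and in 43.6% of all regions, and forkhead letters, TGTTTAC, in 34 (24.5%) and 18.5%. AP-2 letters were found in 34 (24.5%) and 30.1%, and those of AP-1, the letters TGANTCA, in 67 (48.2%) and 34.0%. The NF-kB consensus was found in 5 regions (3.6%, against 4.51%), the progesterone response element in 2 (1.44% in each), and the estrogen response element in 0, against 0.0736% of all regions. These are counts of letters in a fixed window and were not tested.

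With TWEAK, a difference in covered length was called at 0 of the 10 genes in either line. In SKBR3, limma called 0.852% of all genes longer and 0.088% shorter after TWEAK, and 2807 of the 18187 genes were at an unadjusted p under 0.05, among them 1 of the 10 members. That was TFAP2B, whose covered length was 12.6 and 11.4 kb without and 9.78 and 9.06 kb with TWEAK (-0.32 ± 0.10 SE, adjusted p = 0.181). TFAP2A went from 35.4 and 35.5 to 38.8 and 39.1 kb (0.13 ± 0.07 SE, adjusted p = 0.4003, limma), and PGR from 2.06 and 2.47 to 2.63 and 4.97 kb (0.51 ± 0.23 SE, adjusted p = 0.336). Without SKBR3 TWEAK replicate 1, PGR was called at 0.87 (adjusted p = 0.0169), a fit that leaves 1 TWEAK library, which is assumed to vary like the other groups, and a value that rests on SKBR3 TWEAK replicate 2, the library with the longest list. In MDA-MB-453 limma called 0 genes in all (235 at an unadjusted p under 0.05, of which 0 were members), and the members' differences lay between -0.10 and 0.21.

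The groups separated without overlap in SKBR3 at 2 members with longer coverage after TWEAK (TFAP2A and PGR; 21.3% of all genes) and 1 with shorter coverage (TFAP2B; 13.2%). In MDA-MB-453 they did so at 3 (PGR, XBP1 and TRPS1; 19.7%) and 2 (GATA3 and TFAP2B; 16.8%). The widest peak was higher without overlap at 3 in SKBR3 (ESR1, PGR and TFAP2C, 19.1%) and lower at 3 (TFAP2B, MYB and XBP1, 15.5%), and in MDA-MB-453 higher at 1 (XBP1, 17.9%) and lower at 1 (TFAP2A, 17.2%). At XBP1 the widest peak went from 35.3 and 34.3 kb to 18.8 and 18.7 kb in SKBR3, where the same stretch was then listed as separate peaks, and its covered length stayed at 34.1 to 37.8 kb. The difference between the lines in the TWEAK effect was called for 0 members and 0 genes by limma (1547 genes and 0 members at an unadjusted p under 0.05).

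Promoter percentiles were also not called at any of the 8 members. In SKBR3, 0.0581% of genes were called in each direction. XBP1 had the lowest adjusted p, falling from the 97.1th and 97.2th to the 95.9th and 94.9th percentile (-1.72 points, SE 0.53, adjusted p = 0.286), and without SKBR3 TWEAK replicate 1 it was called at -2.22 (adjusted p = 0.0461), with the spread again taken from the other groups. In SKBR3, 1231 of 10327 genes and 1 member were at an unadjusted p under 0.05. In MDA-MB-453 the members' differences lay between -1.65 and 1.69 points, and 0.00968% of genes were called, all lower. Without overlap, 0 members were higher in SKBR3 (8.92%) and 2 lower (TFAP2C and XBP1, 25.5%), and in MDA-MB-453 2 were higher (TFAP2A and TFAP2B, 26.4%) and 1 lower (MYB, 12.5%). The difference between the lines in the TWEAK effect was called for 0 members, with 0.00968% of genes higher and 0.0194% lower. The TFAP2B promoter went from the 63.3th and 72.0th to the 48.1th and 65.1th percentile in SKBR3 and from the 91.8th and 93.6th to the 93.9th and 94.8th in MDA-MB-453.

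Few regions appeared or disappeared with TWEAK. Merged within SKBR3, 2 of 124 regions were in both TWEAK lists and no untreated list (1.61%, against 4.61% of all regions), and 3 showed the reverse (2.42%, against 1.4%). The gained ones lay 32.7 kb past the TFAP2A start, at the 29.6th and 54.7th percentile, and 54.4 kb upstream of TRPS1, at the 2.2th and 24.5th. The lost ones lay 23.6 kb inside TFAP2A (13.3th and 1.1th), 78.0 kb upstream of TFAP2C (22.4th and 15.0th) and 473 kb past the TRPS1 start (40.6th and 50.8th). Merged within MDA-MB-453, 1 of 84 was gained (1.19%, against 1.33%), 176 kb inside TRPS1 at the 3.6th and 12.8th percentile, and 2 were lost (2.38%, against 1.3%), 39.4 kb past the GATA3 start (11.4th and 7.7th) and 22.9 kb upstream of ESR1 (10.1th and 12.3th). These counts rest on single lists in both lines. Without SKBR3 TWEAK replicate 1, 20 regions were gained in SKBR3 (15.9%, against 17.6% of all regions), and without SKBR3 untreated replicate 2, 14 were lost (11.7%, against 9.73%). Without MDA-MB-453 TWEAK replicate 2, 6 were gained in MDA-MB-453 (7.32%, against 5.26%), and without MDA-MB-453 untreated replicate 1, 4 were lost (4.60%, against 5.51%).

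The gained TFAP2A region is the only one of the gained regions whose peak passed the middle of a list. It is shown for that reason, with an NF-kB consensus match in capitals (hg38 chr6:10387348-10387547, plus strand). The printed stretch was again chosen for the most motif matches in the region. The GATA3 region lost with TWEAK in MDA-MB-453 (chr10:8084431-8085057) lies within a longer merged region that also holds such matches (chr10:8083909-8085743). The matches are those of the longer region, which was in all 4 SKBR3 lists. In the 1000 bp searched around each midpoint, these letters were found in 3.6% of member regions and 4.51% of all regions, and no link to TWEAK was tested.
TFAP2A gained region: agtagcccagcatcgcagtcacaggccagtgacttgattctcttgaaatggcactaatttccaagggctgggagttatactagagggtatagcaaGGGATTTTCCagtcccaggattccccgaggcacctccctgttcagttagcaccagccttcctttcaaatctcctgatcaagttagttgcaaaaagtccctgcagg

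Among regions merged within a line and in all 4 of its lists, ranks moved without overlap at about the rate of the whole series. In SKBR3, 13 of 62 were higher after TWEAK (21%, against 20.9%) and 9 lower (14.5%, against 17.4%). In MDA-MB-453, 9 of 60 were higher (15%, against 20.6%) and 12 lower (20%, against 17.9%). ESR1, which has the longest window of the members (673 kb), accounted for 4 of the 13, and its share was not tested. These were the region at 244 kb described above, that at 107 kb (65.4th and 74.5th to 75.5th and 80.2th), that at 455 kb (85.2th and 71.8th to 89.9th and 90.5th) and that at 440 kb (50.7th and 32.7th to 62.7th and 72.5th). The largest rises were 54.4 kb past TFAP2C, from the 25.1th and 28.0th to the 59.1th and 70.3th percentile, and 21.8 kb upstream of TFAP2A, from the 68.8th and 28.0th to the 78.2th and 80.7th. The largest fall was 31.4 kb past the TFAP2B start, from the 53.1th and 54.3th to the 26.3th and 26.2th.

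Of the 39 regions in all 8 lists, 2 were higher after TWEAK in both lines (5.13%, against 3.6%) and 1 lower in both (2.56%, against 3.07%). A further 3 were higher in SKBR3 and lower in MDA-MB-453 (7.69%, against 3.06%), and 0 the reverse (4.41%). The higher ones were the ESR1 region at 440 kb, which in MDA-MB-453 went from the 27.6th and 33.6th to the 38.8th and 43.0th percentile, and a FOXA1 region 48.7 kb past the start, from the 52.4th and 60.6th to the 63.4th and 70.7th in SKBR3 and from the 58.9th and 60.7th to the 61.7th and 66.4th in MDA-MB-453. The lower one lay 20.3 kb upstream of FOXA1, from the 33.9th and 45.4th to the 16.4th and 12.6th in SKBR3 and from the 56.8th and 64.0th to the 55.8th and 56.5th in MDA-MB-453. It holds 3 AP-1 matches and 1 forkhead match within 200 bases, in capitals below, and is shown as the one shared region that fell in both lines (hg38 chr14:37615727-37615926, plus strand). Those 200 bases were chosen for the most motif matches in the region.
FOXA1 upstream region: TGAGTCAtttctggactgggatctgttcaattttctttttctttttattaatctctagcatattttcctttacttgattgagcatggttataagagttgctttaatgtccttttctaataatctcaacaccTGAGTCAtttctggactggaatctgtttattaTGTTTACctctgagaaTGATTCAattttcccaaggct

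**Figure D5:**
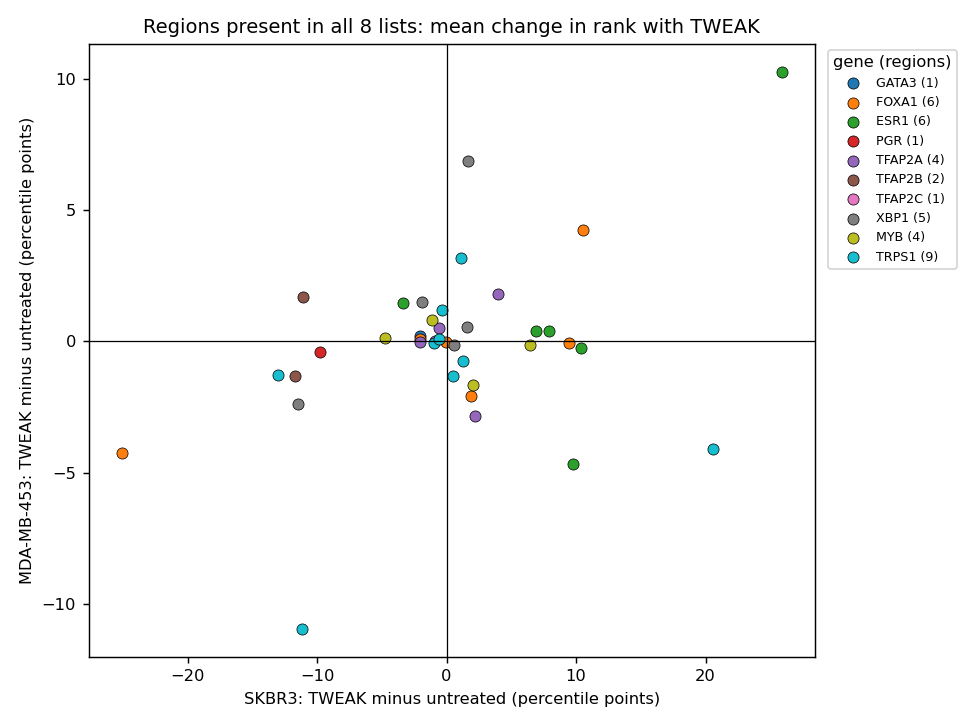
Mean change in percentile with TWEAK in SKBR3 (horizontal, percentile points) and in MDA-MB-453 (vertical) for the 39 regions in all 8 lists, coloured by gene. An ESR1 region rose in both lines (25.9 and 10.3 points), and a FOXA1 region fell in both (-25.1 and -4.3 points).

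Other genes of the same programmes were set beside the members. Of 12 paralogs of the members, 11 could be tested for covered length, and 7 were longer in SKBR3 and 2 in MDA-MB-453 (median 0.38, against 0.33 over all genes). Over all genes tested, 53.9% were called longer in SKBR3 and 24.9% longer in MDA-MB-453. GATA2, a relative of GATA3 best known from blood cells, was longer in SKBR3 (25.0 ± 0.925 against 9.74 ± 0.822 kb, SD, n = 4; 1.28, adjusted p = 1.50e-06, limma), as were GATA5, FOXA3 and MYBL1. TFAP2D and MYBL2 were longer in MDA-MB-453. Of these named paralogs, GATA5 and TFAP2D had a promoter peak in 0 lists.

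Of 26 luminal genes, 9 were longer in SKBR3 and 10 in MDA-MB-453 (median 0.03), and 18 had a promoter peak in all 8 lists. RARA, the retinoic acid receptor alpha, was covered for 69.2 ± 4.54 kb in SKBR3 and 27.9 ± 0.579 kb in MDA-MB-453 (1.28, adjusted p = 5.30e-07, limma), and BCL2, CCND1 and GREB1 were also longer in SKBR3. ERBB4, a receptor of the HER family, was covered for 0.382 ± 0.764 and 28.0 ± 1.146 kb (-4.52, adjusted p = 9.76e-07, limma), and SLC39A6, STC2 and NRIP1 were also longer in MDA-MB-453. A promoter peak was found in 0 lists at ERBB4 and in 1 list at GREB1. Of 14 basal genes, 12 were tested, and 7 were longer in SKBR3 and 2 in MDA-MB-453 (median 0.59), while 0 of the 14 had a promoter peak in all 8 lists. EGFR was covered for 38.9 ± 11.9 and 0.396 ± 0.332 kb (4.82, adjusted p = 1.98e-07), followed by BCL11A, KRT14 and ID4, of which KRT14 and ID4 had a promoter peak in 0 lists, whereas SNAI2 and TP63 were longer in MDA-MB-453. With TWEAK, limma called 0 genes of these 3 lists in either line.

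The genes whose covered lengths were most like a member's over the 8 lists were found by Euclidean distance of log2(covered kb + 1), on other chromosomes, for the 9 members that differed between the lines. For GATA3 these were LRRC49 (distance 0.217), RORA (0.279) and DCLK1 (0.321), for TRPS1 EHF (0.302), ACIN1 (0.303) and NFIB (0.351), and for TFAP2B UPP2 (0.421), DGKH (0.467) and CNST (0.472). TFAP2C had its nearest genes farther off, UBL7 (0.587), ABTB1 (0.661) and ZCCHC24 (0.662). MYB lay nearest to C5orf34 (0.415), FOXA1 to JUNB (0.260), TFAP2A to RANBP10 (0.227), XBP1 to DNASE2 (0.157) and PGR to CTSS (0.299).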

How the data were processed

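Deposited H3K27ac ChIP-seq peaks from both lines, untreated or given TWEAK, were used, 1 list per library and 2 libraries per group. The 2 input samples were not used as files here. Per the labels and methods, the authors trimmed reads with Trimmomatic, aligned them to hg38 with Bowtie2, called peaks with MACS2 after subtracting the input signal, removed blacklisted regions with bedtools and made tracks with deepTools. Versions and the other calling options are not given in the sources used here. The deposited fold enrichment and the deposited −log10 p-value and −log10 q-value were made by the authors with MACS2. The deposited score is 10 times the −log10 q-value without its decimals. Read counts were not used, so depth is unknown, and a region missing from a list may have been under the threshold. The study tested reads, which the lists do not hold.

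Peaks were joined to GENCODE release 44 genes with 100 kb on each side in Python 3.11.15 (pandas 2.3.3, numpy 2.4.6). Windows can hold other genes, such as TAF3 at GATA3, TTC6 and MIPOL1 at FOXA1 and SYNE1 at ESR1. Covered length was tested as log2(kb + 1) over genes with a mean of at least 1 kb, and the percentile of the promoter peak (within 1 kb of a start) over genes with one in all 8 lists, in limma 3.58.1 (R 4.3.3) with the 4 groups in 1 fit and Benjamini-Hochberg adjustment at 0.05. The fit was tested on simulated data. Every adjusted p in the text is from limma. Members and lists were chosen with earlier results of these data known. All members are named, with up to 4 genes per list and line by smallest adjusted p, the 3 most alike genes, promoter and widest peaks, up to 3 line-specific regions per member and regions gained or lost with TWEAK. Other regions were chosen after their values were seen. Each printed stretch of 200 bases was the one with the most motif matches in its region, so its matches were selected and show no enrichment. Alternatives were a stricter q, lists of equal size, scaling, other windows, promoter distances, pseudocounts, overlaps and ranks, no filter, a replicate block and leaving out each library. RefSeq promoters (GRCh38.p14) were matched for 8 of the 10 members, not for TFAP2C and TRPS1. Only 1 RefSeq start was kept per gene, so other starts of a gene are not covered.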

Additional observations from a re-analysis of the deposited data

Results flagged for a closer look

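At 4 features both TWEAK libraries lay above both untreated ones in one line and below them in the other. The difference was not tested at any of them. Of all regions in 8 lists, 3.06% were higher in SKBR3 and lower in MDA-MB-453 in this sense, and 4.41% the reverse. For the widest peak no such share was counted. The widest XBP1 peak changed in width by a mean of -16023.5 bp in SKBR3 and 9484.5 bp in MDA-MB-453, a difference between the lines of -25508 bp. In MDA-MB-453 the widths were 22.7 and 22.8 kb without and 25.3 and 39.1 kb with TWEAK, and without TWEAK replicate 2, an alternative chosen after seeing the data, the change was 2.57 kb. The covered length of that domain was 37.0 to 39.1 kb in all 4 MDA-MB-453 lists. The region over the GCNT2 promoter, 101 kb upstream of TFAP2A, rose by 2.23 percentile points in SKBR3 and changed by -2.83 in MDA-MB-453, a difference of 5.06. The XBP1 domain changed by 0.593 and -0.117 points, a difference of 0.710. A region 246 kb inside TRPS1 changed by 20.6 and -4.10 points, a difference of 24.7.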

How the results depend on the processing

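The line difference in covered length was called for 8 to 10 members under every alternative except the gene body alone, where it was 6, and for promoter percentile for 4 to 6. Members longer in SKBR3 and in MDA-MB-453 were 1 and 8 of 10 in the main fit and 1 and 9 of 10 when scaled by list total. They were 2 and 6 of 9 tested with 50 kb windows, and 2 and 4 of 9 in gene bodies. With the stricter q, only 6 members could be tested for promoter percentile. Reversed values were ESR1 covered length scaled by list total (-0.24, adjusted p = 0.0363), TFAP2A promoter percentile with the stricter q (-1.19), lists of equal size (-0.57) or rank by fold enrichment (-2.26), and TRPS1 promoter percentile, which lay between -0.93 and 0.67 over the fits leaving out 1 library (0.25 without SKBR3 untreated replicate 1 and 0.67 without SKBR3 TWEAK replicate 1). Ranked by fold enrichment, TRPS1 was called at -8.83 (adjusted p = 0.00758). Regions found in SKBR3 alone numbered 6 with the stricter q and 2 in gene bodies, and those in MDA-MB-453 alone 9 and 5. Regions gained in SKBR3 numbered 1 with 50 kb windows, 0 in gene bodies, 4 with 50% overlap and 4 to 20 leaving out 1 library. Those lost in SKBR3 numbered 0 with the stricter q, 1 with 50 kb windows, 1 in gene bodies, 7 with 50% overlap and 6 to 14 leaving out 1 library. In MDA-MB-453, gained regions numbered 2 with 50% overlap and 3 to 6 leaving out 1 library, and lost ones 0 with the stricter q, 0 in gene bodies and 2 to 4 leaving out 1 library. Members called with TWEAK in SKBR3 numbered 0 to 1 leaving out 1 library, for covered length and for promoter percentile. Presence in a list depends on unknown depth, and 2 lists per group set the precision.

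With the replicate number as a block, 9 members were called between the lines for covered length, 5 for promoter percentile and 0 with TWEAK. Same-numbered libraries had correlated deviations of 0.552 and 0.305 in SKBR3 and -0.0586 and -0.0267 in MDA-MB-453 for the 2 measures, and no label says that a number marks a shared batch.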
